A study of Mus musculus with 6 samples.

Results

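The axon guidance genes described here are the 68 ligands and receptors of the semaphorin, plexin, neuropilin, netrin, UNC5, SLIT, ROBO, Eph and ephrin families. They were chosen by gene symbol, with earlier results of these data known, from 35975 rows that carried counts in a deposited table of brown fat transcripts. Of the 68 genes 35 encode ligands and 33 encode receptors. In all, 49 members (28 ligands and 21 receptors) had enough reads to be tested between genotypes, and 19 did not.

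Messenger RNA was sequenced from interscapular brown fat, the heat-producing depot between the shoulder blades, of mice on a C57BL/6 background. The labels give 3 control libraries (genotype Ctrl) and 3 libraries of genotype Olfm4CKO, in which Cre under the promoter of Ucp1, a gene of brown adipocytes, deletes loxP-flanked alleles of Olfm4, the gene of the secreted glycoprotein olfactomedin 4. They give no age or sex, do not say which alleles or transgenes the controls carry, and do not say whether each library is a separate mouse. The p-values thus cover only the spread among these libraries. Ctrl replicates 1 and 2 had 2798 and 0 counts of Y-linked genes, so they are not repeats of the same RNA. For the Olfm4CKO libraries the spread may be technical. The series title speaks of Schwann cells, innervation of the depot and MEK/ERK signalling, and the comparison asks how the depot's transcripts differ between the genotypes. Because the Cre driver is active in brown adipocytes, other cell types of the depot are not its stated target.

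Values per gene come from replicates 1 and 2 of each group, with 15346705 to 17309325 counts per library. The replicate 3 columns do not follow the gene names: their Spearman correlation with the other libraries across rows was between -0.0209 and -0.0156, against 0.9399 to 0.947 among the other 4, and they were left out. Olfm4 had 0 counts in all 4 libraries, controls included, so it cannot check the labels. The titles of the knockout samples carry a wild-type tag, and groups follow the genotype field. Ctrl replicate 1 stands apart by 2798 counts of the Y-linked genes Ddx3y, Eif2s3y, Kdm5d and Uty, which had 0 counts in the other 3 libraries. Xist, the RNA of the inactive X chromosome, was at 0 and 49.5 CPM in Ctrl replicates 1 and 2 and at 215 and 207 CPM in Olfm4CKO, so Ctrl replicate 2 also lay below both Olfm4CKO libraries. The part of sex in the values below was not tested. Brown adipocyte markers were present in every library. Ucp1 had 5885 and 10210.2 CPM (counts scaled to effective library size) in Ctrl and 4815 and 2944 CPM in Olfm4CKO, without overlap. Its log2 fold change was -1.05 ± 0.45 (SE), and of 8 such markers 6 lay below 0 and 2 above. Ucp1 was the only 1 of the 8 whose groups did not overlap (12.5%, against 24.6% of all genes). The median log2 fold change of the 8 markers was -0.19. Their part in the values below was not tested. Of 8 neuronal genes, Th, Dbh and Snap25 had 0 counts throughout. Uchl1 had 12 and 9 counts in Ctrl and 10 and 5 in Olfm4CKO. Tubb3, Prph, Elavl4 and Rbfox3 had at most 7 counts in a library.

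Guidance molecules steer growing axons by attraction or repulsion, and the same molecules shape blood vessels and position immune cells. Secreted class 3 semaphorins bind neuropilins, which signal through plexins, while most membrane-bound semaphorins bind plexins directly. Netrins act through DCC, neogenin and UNC5 receptors, SLIT proteins through ROBO receptors, and ephrins, which stay on the cell surface, through Eph receptor tyrosine kinases of the neighbouring cell. In adipose tissue these families are known from sympathetic innervation, from the vascular bed and from macrophages.

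The receptors Nrp1 and Plxnd1 and the ligand Efnb1 had the highest levels per transcript length of the 68 genes. Levels of different genes are compared as CPM per kilobase of exon, the normalised CPM divided by the summed length of a gene's exons in GENCODE vM21. On this scale Nrp1, the co-receptor of class 3 semaphorins and VEGF, had 24.2 ± 1.91 CPM per kb (SD over the 4 libraries, n = 4, as in the next 4 sentences), a level above that of 88.0% of all tested genes. Plxnd1, a plexin of blood vessels, had 21.0 ± 3.74 CPM per kb and Efnb1, ephrin-B1, 20.2 ± 2.33 CPM per kb. Ephb4, the venous receptor of ephrin-B2, had 15.5 ± 2.50 CPM per kb, and the membrane-anchored semaphorin Sema7a 15.4 ± 7.22 CPM per kb. Next in order were Sema3g (12.3 ± 1.80), Plxna1 (11.6 ± 7.63), the endothelial roundabout receptor Robo4 (11.5 ± 6.12), Nrp2 (9.41 ± 3.58) and Efna1 (9.12 ± 4.19 CPM per kb). Levels spanned a wide range, with Slit2 at 0.0290 CPM per kb the lowest of the tested members. The ranges over the 4 libraries overlapped for all 48 pairs of neighbours in this order, so the order of neighbours is not resolved by these libraries.

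**Figure D1:**
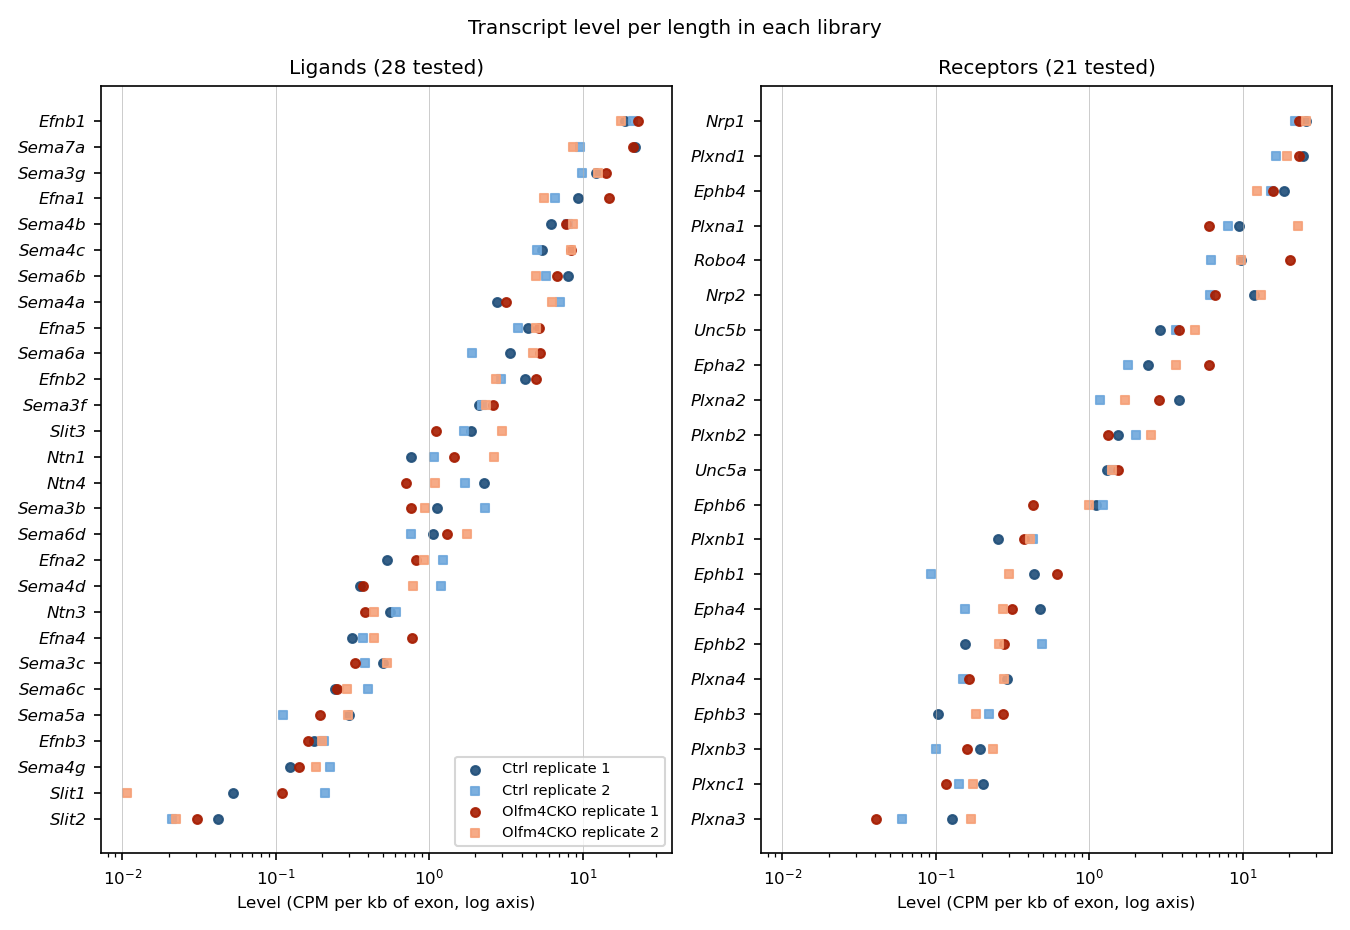
Level of each tested member in the 4 libraries, as CPM per kb of exon on a log axis, with 28 ligands on the left and 21 receptors on the right, each sorted by its mean. Circles are replicates 1 and squares replicates 2, blue shades for Ctrl and red or orange for Olfm4CKO. Efnb1 and Sema7a head the ligands and Nrp1 and Plxnd1 the receptors, and for most genes the 2 colours are mixed.

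Within most families a single member made up most of the level, in both genotypes. Robo4 held 98.9% to 99.9% of the summed level per length of the 4 ROBO genes over the 4 libraries, while Robo1, Robo2 and Robo3, the receptors known from axons, were not tested for lack of counts. Slit3 held 87.9% to 98.9% of the SLIT level, Ephb4 87.7% to 91.1% of the EphB level, Epha2 79.7% to 91.2% of the EphA level and Efnb1 81.1% to 87.1% of the ephrin-B level. Sema3g held 66.2% to 79.3% of the class 3 semaphorin level, Unc5b 68.6% to 77.5% of the UNC5 level and Nrp1 66.1% to 78.3% of the neuropilin level. Plexins were shared between Plxnd1 (40.7% to 67.8%) and Plxna1 (17.6% to 47.8%). No member led in all 4 libraries among the plexins, where Plxna1 was ahead in Olfm4CKO replicate 2, among the class 4 semaphorins, where Sema4c (42.3%) was ahead of Sema4b (39.0%) in Olfm4CKO replicate 1, or among the netrins.

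The 19 members that were not tested had at most 1.46 CPM in any library (23 counts, Robo1 in Olfm4CKO replicate 2). They include 7 of 9 EphA receptors (Epha1, Epha3, Epha5, Epha6, Epha7, Epha8 and Epha10), 3 of 4 ROBO receptors, Unc5c, Unc5d, Ntn5, Efna3, Sema3a, Sema3d, Sema3e, Sema4f and Sema5b. Epha6, Epha8, Unc5d and Ntn5 had 0 counts in all 4 libraries, which allows up to 0.178 to 0.194 CPM per library (3 counts of the effective library size, counting error only). Sema3a, the ligand most studied with Nrp1, had 4 and 2 counts in Ctrl and 3 and 3 in Olfm4CKO. Sema3e, the ligand known for Plxnd1, had 8 and 6 counts in Ctrl and 1 and 4 in Olfm4CKO. Both receptors were thus measured at high levels in libraries where these ligands were near the limit of detection. Along chromosome 5 (GRCm38), the genes of Sema3d (start 12383161), Sema3a (13124822), Sema3e (14025276) and Sema3c (17574816) follow each other, and the highest of them was Sema3c at 2.32 to 3.82 CPM. The class 3 genes elsewhere, Sema3b and Sema3f on chromosome 9 and Sema3g on chromosome 14, all had higher means.

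The sequence before the start of 4 genes is shown for a reader who wants to see what lies upstream of members that lead a family or lie far from 0 in the comparison: the leading Eph receptors Epha2 and Ephb4, the netrin Ntn4 and the leading class 3 semaphorin Sema3g. Each is the 250 bases before the RefSeq gene start on GRCm38.p6, plus strand, 5′ to 3′, at chr4:141300971-141301220, chr5:137349859-137350108, chr10:93640799-93641048 and chr14:31217623-31217872 in that order. The bases just after the start were found near the start of a GENCODE vM21 transcript for Ephb4, Ntn4 and Sema3g, but not for Epha2. Capitals mark letter matches, on either strand, to a GC box (GGGCGG), to a core bound by ETS factors (GGAAGT) or to an AP-1 site (TGANTCA).
Epha2: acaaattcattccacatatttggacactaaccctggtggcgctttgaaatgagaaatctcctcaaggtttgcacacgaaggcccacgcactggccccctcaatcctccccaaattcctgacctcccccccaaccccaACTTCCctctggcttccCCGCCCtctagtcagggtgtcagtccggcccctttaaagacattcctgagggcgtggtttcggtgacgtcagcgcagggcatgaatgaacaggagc
Ephb4: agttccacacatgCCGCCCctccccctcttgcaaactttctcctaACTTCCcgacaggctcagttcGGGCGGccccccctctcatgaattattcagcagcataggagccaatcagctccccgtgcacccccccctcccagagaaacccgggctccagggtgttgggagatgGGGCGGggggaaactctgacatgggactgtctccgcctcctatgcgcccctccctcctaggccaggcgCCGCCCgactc
Ntn4: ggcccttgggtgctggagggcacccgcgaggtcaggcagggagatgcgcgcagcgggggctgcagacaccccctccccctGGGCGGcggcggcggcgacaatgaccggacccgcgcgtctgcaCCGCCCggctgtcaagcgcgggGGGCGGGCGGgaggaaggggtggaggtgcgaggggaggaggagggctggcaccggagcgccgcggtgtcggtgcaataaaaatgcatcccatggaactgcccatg
Sema3g: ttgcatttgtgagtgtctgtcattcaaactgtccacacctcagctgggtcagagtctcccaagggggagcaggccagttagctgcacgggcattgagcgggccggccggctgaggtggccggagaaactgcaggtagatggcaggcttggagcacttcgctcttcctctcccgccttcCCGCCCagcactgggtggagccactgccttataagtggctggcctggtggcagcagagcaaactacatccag
Epha2 had 1 GC box and 1 ETS core, Ephb4 4 GC boxes and 1 ETS core, Ntn4 4 GC boxes, of which 2 overlap, and Sema3g 1 GC box. A window was listed for 59 of the 68 members, and 72.9% of these held a GC box, against 32.9% of 27025 genes of all kinds. An ETS core was found in 15.3% of member windows and 20.0% of all windows, and an AP-1 site in 3.39% and 6.87%. The dinucleotide CG occurred a median of 16 times in member windows and 6 times in all windows. A match describes letters only and says nothing of binding, and the windows of all genes include many predicted genes (Gm and Rik symbols).

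Between genotypes, no member passed the threshold. In edgeR's quasi-likelihood test, 0 of the 49 tested members reached an adjusted p (Benjamini-Hochberg, over all genes) under 0.05, and it was 0.9998 for each. The same held for all genes, with 0 of 13573 called (0.0%). At an unadjusted p below 0.05 there were 4 members, the receptor Epha2 and the ligands Ntn1 and Sema6a higher and the ligand Ntn4 lower in Olfm4CKO. That is 8.16% of those tested, against 2.11% of all genes, of which 1.5% were higher and 0.612% lower. DESeq2 and limma-voom also called 0 members. At an unadjusted p below 0.05 there were 5 of 64 tested members in DESeq2 and 4 of 49 in limma-voom. The share of all genes at that level is not given here for these fits. Over all genes DESeq2 called 0.0189% and limma-voom 0.0%, a fit with the replicate number as a block 0.0295%, and fits that left out a library 0.175% (Ctrl replicate 1), 0.190% (Ctrl replicate 2), 0.190% (Olfm4CKO replicate 1) and 0.0420% (Olfm4CKO replicate 2), each with 0 members. The groups did not overlap for 15 members (30.6%), 11 higher and 4 lower in Olfm4CKO, against 24.6% of all genes, 11.8% higher and 12.8% lower. The median log2 fold change was 0.11 over the 49 members, 0.01 over the ligands, 0.12 over the receptors and -0.01 over all genes. These libraries leave room for differences of size: for 43 of the 49 members the 95% interval reached a 2-fold difference in at least 1 direction. The other 6 were Nrp1, Plxnd1, Efnb1, Efnb2, Sema4b and Sema3f, named after their values were seen. Over all genes the interval reached a 2-fold difference for 9350 of 13573, a smaller share than among the members.

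**Figure D2:**
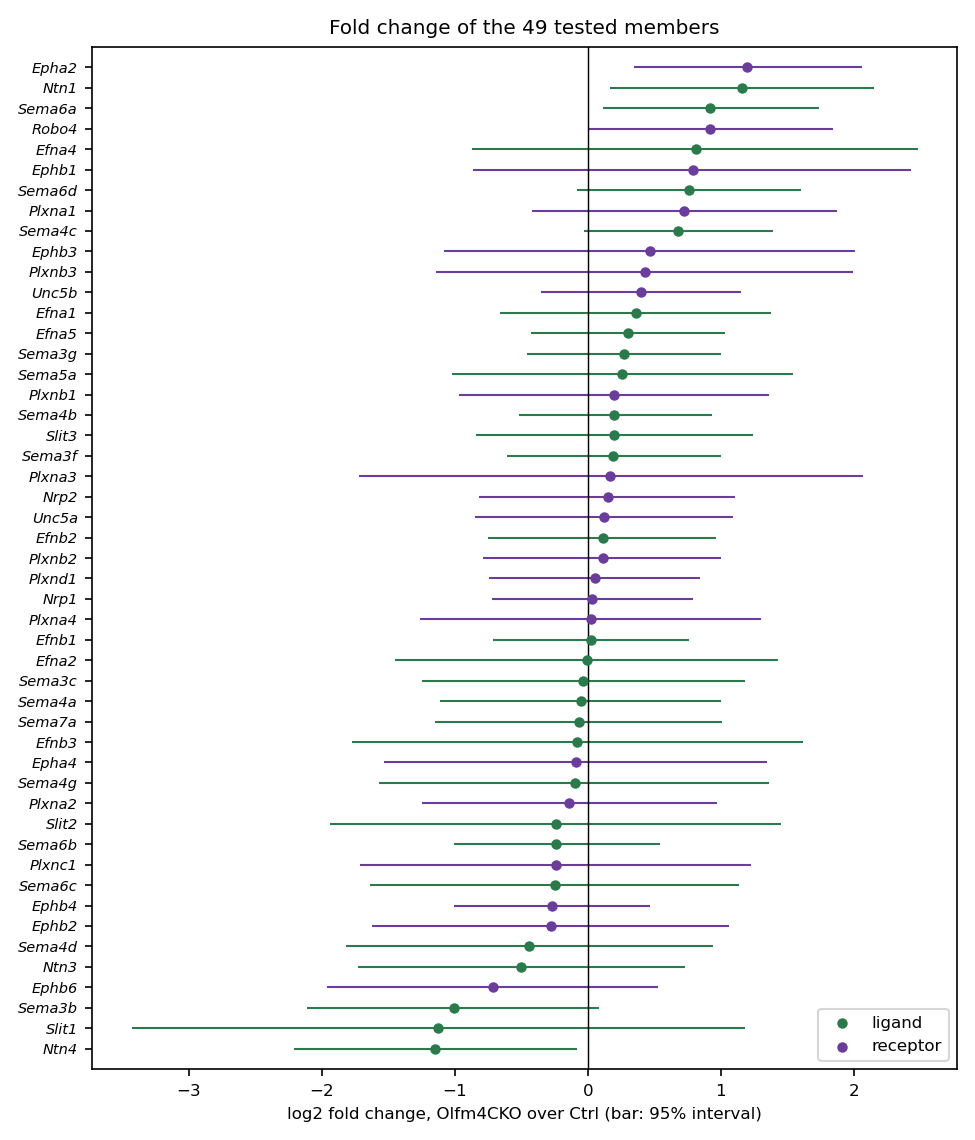
log2 fold change of the 49 tested members, Olfm4CKO over Ctrl, with 95% intervals from edgeR's quasi-likelihood fit (2 libraries per group), ligands in green and receptors in purple. Points run from -1.15 for Ntn4 to 1.20 for Epha2, and the intervals of 4 members leave out 0 before adjustment: Epha2, Ntn1, Sema6a and Ntn4.

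Among the ephrin receptors, Epha2, a receptor tyrosine kinase of epithelia and vessels that binds ephrin-A1, had the smallest p of all members. Epha2 (chromosome 4, 141301221 to 141329384) had 11.3 and 8.42 CPM in Ctrl replicates 1 and 2 and 28.2 and 17.1 CPM in Olfm4CKO replicates 1 and 2. Both Olfm4CKO libraries lay above both controls, with means of 22.6 ± 7.81 against 9.84 ± 2.02 CPM (SD, n = 2 each). The log2 fold change was 1.20 ± 0.39 (SE), with a 95% interval of 0.35 to 2.06 (edgeR unadjusted p = 0.0103, adjusted p = 0.9998). Leaving out Ctrl replicate 1 or 2 gave 1.42 or 1.01, leaving out Olfm4CKO replicate 1 or 2 gave 0.82 or 1.51, and it passed in none of these fits. Ephb4 (chromosome 5, 137350109 to 137374522) had 85.9 and 71.6 CPM in Ctrl and 73.1 and 57.6 CPM in Olfm4CKO. The groups overlapped, with a log2 fold change of -0.27 ± 0.34 (SE). The share of Epha2 in the summed level of all 14 Eph receptors, which does not depend on library scaling, was 10.3% and 9.24% in Ctrl and 25.1% and 20.0% in Olfm4CKO. For Ephb4 this share was 79.3% and 79.1% against 65.8% and 67.7%. Shares of the same sum are tied, so a higher share of Epha2 lowers that of Ephb4, whose CPM overlapped between groups. The kinase-inactive receptor Ephb6 had 4.20 and 4.62 CPM in Ctrl and 1.61 and 3.75 CPM in Olfm4CKO (-0.71 ± 0.57 SE). The 4 other tested Eph receptors, Epha4, Ephb1, Ephb2 and Ephb3, had overlapping groups and at most 6.23 CPM in a library.

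The ephrins showed no member at an unadjusted p below 0.05. Efna1, the ligand of Epha2, had 17.2 and 12 CPM in Ctrl and 27.3 and 10.2 CPM in Olfm4CKO, so the highest and the lowest library were of the same group. Its log2 fold change of 0.36 ± 0.46 (SE) was -0.49 without Olfm4CKO replicate 1. Efna5, ephrin-A5, had 17.7 and 15.4 CPM in Ctrl and 20.8 and 19.9 CPM in Olfm4CKO, a small gap between groups that did not overlap (0.30 ± 0.33 SE). Efnb1 had 65.1 and 73.2 CPM in Ctrl and 79.2 and 61.4 CPM in Olfm4CKO, and Efnb2, the arterial ligand of Ephb4, 28.9 and 20.0 against 33.9 and 18.7 CPM. Both had overlapping groups, with 95% intervals of -0.71 to 0.76 and -0.75 to 0.96. Efnb3 and Efna2 overlapped as well, and Efna4, at 0.501 and 0.593 against 1.23 and 0.700 CPM, did not. The genes of Efna1, Efna3 and Efna4 lie close together on chromosome 3 (89271730 to 89338028), and Efna1 was well above the other two in every library.

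Among the netrins, Ntn4 had the highest level per length in both Ctrl libraries and Ntn1 in both Olfm4CKO libraries. Ntn1, netrin-1, the classic attractant of commissural axons (chromosome 11, 68209364 to 68386826), had 4.76 and 6.70 CPM in Ctrl and 9.04 and 16.6 CPM in Olfm4CKO. Ntn4, netrin-4, a basement membrane protein that binds laminin (chromosome 10, 93641049 to 93745972), had 8.58 and 6.34 CPM in Ctrl and 2.65 and 4.07 CPM in Olfm4CKO. Both Olfm4CKO libraries thus lay above the controls for Ntn1 and below them for Ntn4. The log2 fold change of Ntn1 was 1.16 ± 0.45 (SE; edgeR unadjusted p = 0.0259, adjusted p = 0.9998), 0.93 without Ctrl replicate 1 and from 0.65 (Olfm4CKO replicate 2 left out) to 1.55 (Olfm4CKO replicate 1 left out) over the 4 such fits. That of Ntn4 was -1.15 ± 0.48 (SE; edgeR unadjusted p = 0.0369, adjusted p = 0.9998), -0.92 without Ctrl replicate 1 and from -1.50 to -0.85 over the same fits. Neither passed in any fit with a library left out. Per length, the ratio of Ntn1 to Ntn4 within a library was 0.331 and 0.629 in Ctrl and 2.04 and 2.43 in Olfm4CKO. This ratio needs no scaling between libraries, and it was picked after the values were seen. Ntn3 had 2.82 and 3.08 CPM in Ctrl and 1.94 and 2.23 CPM in Olfm4CKO, also without overlap.

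The netrin receptors of the UNC5 family were led by Unc5b, an endothelial receptor. It had 18.2 and 23.2 CPM in Ctrl and 24.2 and 30.5 CPM in Olfm4CKO, groups that were apart by less than the spread within either (0.40 ± 0.34 SE). Unc5a was nearly level, at 5.45 and 5.87 against 6.46 and 5.85 CPM. Of the other netrin receptors, which are not among the 68, Dcc had 0 counts in all libraries and Neo1, neogenin, had 14.5 to 30.1 CPM with overlapping groups.

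Among SLIT ligands and ROBO receptors, Robo4 stood out by level. Robo4, which maintains the endothelial barrier (chromosome 9, 37401902 to 37414023), had 51.6 and 33.1 CPM in Ctrl and 108 and 52.0 CPM in Olfm4CKO. The groups were apart by the gap between 51.6 and 52.0 CPM, and a single library, Olfm4CKO replicate 1, held the high value. The log2 fold change was 0.92 ± 0.42 (SE; edgeR unadjusted p = 0.0507, adjusted p = 0.9998), 0.32 without that library and 1.27 without Ctrl replicate 1. Slit3, a ligand made in adipose tissue and linked to its sympathetic nerves, had 11.4 and 10.2 CPM in Ctrl. In Olfm4CKO it had 6.72 and 18.1 CPM, on either side of both controls (0.20 ± 0.47 SE, and -0.69 without Olfm4CKO replicate 2). Slit1 and Slit2 had at most 1.25 CPM in a library.

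**Figure D3:**
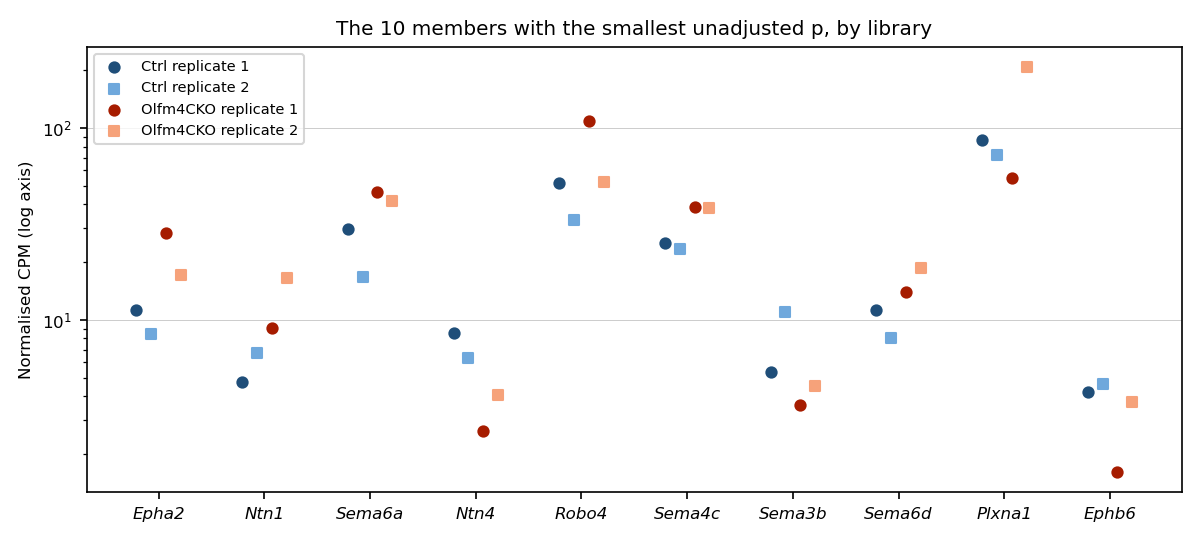
Normalised CPM, on a log axis, of the 10 members with the smallest unadjusted p in edgeR's fit, in each of the 4 libraries. Circles are replicates 1 and squares replicates 2, blue shades for Ctrl and red or orange for Olfm4CKO. For 9 of the 10 the colours do not overlap, and Plxna1 is the exception, its Olfm4CKO libraries lying at 54.7 and 207 CPM. Picking genes by p of this same comparison favours groups that are apart, so this count is no separate result. Groups were apart for 30.6% of the tested members and 24.6% of all genes.

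Of the membrane-bound semaphorins, Sema6a, Sema6d and Sema4c were higher in both Olfm4CKO libraries, none past the adjusted threshold. The other tested membrane-bound semaphorins had overlapping groups. Over all genes, 11.8% were higher in Olfm4CKO without overlap. Sema6a, a transmembrane semaphorin that binds plexin-A2 and plexin-A4 (chromosome 18, 47245254 to 47371200), had 29.7 and 16.8 CPM in Ctrl and 46.4 and 41.7 CPM in Olfm4CKO. On the log2 scale the fold change was 0.92 ± 0.37 (SE; edgeR unadjusted p = 0.0294, adjusted p = 0.9998). Both control libraries were further apart than the Olfm4CKO libraries, and the value was 1.39 without Ctrl replicate 1 and 0.58 without Ctrl replicate 2. Sema6d, another class 6 member, had 11.2 and 8.06 CPM in Ctrl and 13.9 and 18.7 CPM in Olfm4CKO (0.76 ± 0.38 SE). Sema6b lay the other way, at 32.1 and 23.1 against 26.9 and 19.8 CPM, with overlapping groups (-0.24 ± 0.35 SE). Within class 6 the share of Sema6a was 26.5% and 21.5% in Ctrl and 38.8% and 40.2% in Olfm4CKO, and that of Sema6b 63.3% and 65.4% against 49.8% and 42.4%. These shares, too, were picked after the values were seen.

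Sema4c, a ligand of plexin-B2 (chromosome 1, 36548639 to 36560699), had the closest replicates among the members whose groups were apart. It had 25.0 and 23.3 CPM in Ctrl and 38.8 and 38.4 CPM in Olfm4CKO, means of 24.1 ± 1.19 and 38.6 ± 0.280 CPM (SD, n = 2 each). The log2 fold change of 0.68 ± 0.32 (SE; edgeR unadjusted p = 0.0595, adjusted p = 0.9998) stayed between 0.64 and 0.73 whichever library was left out. edgeR draws a gene's variance toward that of genes of like level, so the close replicates weigh less in p than they would alone. Of its exons 7.27% overlap the antisense gene D430040D24Rik, whose reads cannot be told apart without strand. Sema4b had 35.3 and 45.1 CPM in Ctrl and 43.9 and 48.5 CPM in Olfm4CKO, with overlap. Sema4a, known from dendritic cells and T cells, had 15 and 38.4 CPM in Ctrl and 17 and 34.3 CPM in Olfm4CKO, so both replicates 2 were high and both replicates 1 low. Sema4d, a semaphorin of lymphocytes, had the same order, at 2.69 and 9.25 against 2.84 and 5.98 CPM. Summed markers of T and NK cells lay in that order as well, at 11.3 and 55.9 CPM in Ctrl and 12.6 and 22.1 CPM in Olfm4CKO, with 7 of 7 markers below 0 between genotypes. Summed macrophage markers had this order too, at 166 and 402 CPM in Ctrl and 174 and 236 CPM in Olfm4CKO, with 7 of 8 below 0. Among them C1qa, Cd68 and Cd163 did not follow it in both groups. The order was not particular to immune cells. Summed stromal progenitor markers had it as well, at 1078 and 1386 CPM in Ctrl and 698 and 1302 CPM in Olfm4CKO. No marker of these lists was at 0, and the part of these cells in the values of Sema4a and Sema4d was not tested.

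Sema7a, a lipid-anchored semaphorin that binds integrins and plexin-C1 (chromosome 9, 57939596 to 57962865), divided by replicate number. It had 72.1 and 31.8 CPM in Ctrl and 70.7 and 28.6 CPM in Olfm4CKO, with both replicates 1 high and both replicates 2 low. The log2 fold change was -0.07 ± 0.49 (SE). The labels do not say what a replicate number shares between groups, and across all tested genes the deviations of same-numbered libraries had a correlation of 0.003.

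Of the 4 tested class 3 semaphorins, which are secreted, 3 had groups that did not overlap, against 24.6% of all genes. Whether 3 of 4 differs from that share was not tested. Sema3g and Sema3f were higher and Sema3b lower in Olfm4CKO, and 0 of the 4 had an unadjusted p below 0.05 in edgeR's test. Sema3g, a semaphorin of arterial endothelium that binds Nrp2, had 56.0 and 44.9 CPM in Ctrl and 64.7 and 57.2 CPM in Olfm4CKO (0.27 ± 0.33 SE). Sema3f, also a ligand of Nrp2, had 11.0 and 11.5 CPM in Ctrl and 13.6 and 12.1 CPM in Olfm4CKO (0.19 ± 0.36 SE). For both genes the Olfm4CKO libraries lay just above the controls. Sema3b was the class 3 member farthest from 0, with 5.38 and 11.0 CPM in Ctrl and 3.62 and 4.52 CPM in Olfm4CKO. The value of -1.01 on the log2 scale ± 0.50 (SE; edgeR unadjusted p = 0.0665, adjusted p = 0.9998) was -0.39 without Ctrl replicate 2, the library that held the high value. Summed markers of Schwann cells were also highest in Ctrl replicate 2, with 243 and 412 CPM in Ctrl, then 178 and 133 CPM in Olfm4CKO, with 8 of 10 below 0, and their part in the values of Sema3b was not tested. Sema5a, of the class with thrombospondin repeats, had 5.57 and 2.08 CPM in Ctrl and 3.62 and 5.53 CPM in Olfm4CKO, with overlap.

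**Figure D4:**
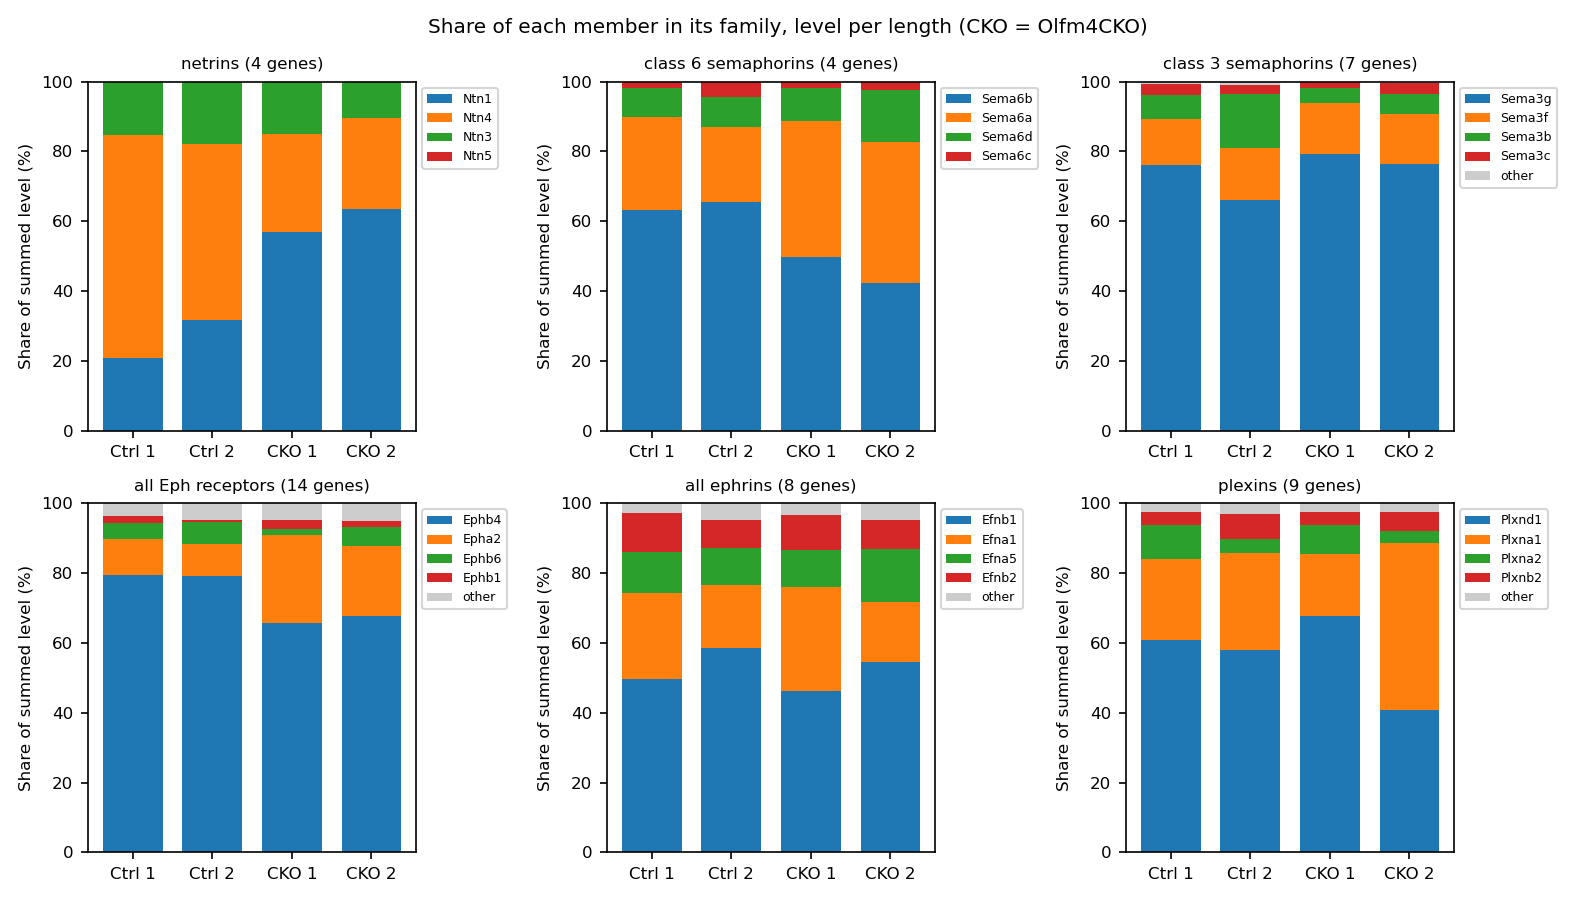
Share of each member in the summed level of its family (CPM per kb, in percent) in each library, for 6 families, with the members of highest mean share in colour and the rest in grey. Ntn4 leads the netrins in both Ctrl libraries and Ntn1 in both Olfm4CKO libraries, the share of Epha2 among Eph receptors is 9.24% to 10.3% in Ctrl and 20.0% to 25.1% in Olfm4CKO, and the plexin shares differ most in Olfm4CKO replicate 2.

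Semaphorin receptors varied between replicates more than between genotypes. For all 11 plexins and neuropilins the mean gap between replicates of a group, in log2(CPM + 0.5), was larger than the gap between group means, which held for 69.4% of all members and 75.4% of all genes. Nrp1 (chromosome 8, 128358591 to 128505476) had 253 and 215 CPM in Ctrl and 227 and 252 CPM in Olfm4CKO. Between groups the log2 fold change was 0.03 ± 0.34 (SE), with a 95% interval of -0.72 to 0.79. Plxnd1 had 181 and 121 CPM in Ctrl and 170.2 and 142 CPM in Olfm4CKO (0.05 ± 0.36 SE). Both genes, the highest receptors of the set, thus had groups that overlapped fully. Nrp2, the receptor of Sema3f and Sema3g and of lymphatic VEGF signals, had 139.6 and 72.0 CPM in Ctrl and 78.5 and 156 CPM in Olfm4CKO, each group with a high and a low library. Plxna1 had 86.0 and 72.2 CPM in Ctrl and 54.7 and 207 CPM in Olfm4CKO, the highest and the lowest value in the same group. A log2 fold change of 0.72 ± 0.52 (SE) was -0.54 without Olfm4CKO replicate 2, and 10.7% of its exons overlap the antisense gene Gm26811. Plxna2 had 66.2 and 20.1 CPM in Ctrl and 48.9 and 29.3 CPM in Olfm4CKO, with both replicates 1 high. Plxnb2, the receptor of Sema4c, had 11.9 and 15.6 CPM in Ctrl and 10.2 and 19.4 CPM in Olfm4CKO. The 5 other plexins, Plxna3, Plxna4, Plxnb1, Plxnb3 and Plxnc1, had at most 4.15 CPM in a library and overlapping groups.

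Markers of vascular endothelium had positive log2 fold changes, most with overlapping groups. Of 10 markers 10 lay above 0 (median log2 fold change 0.58), and 0 passed the adjusted threshold. Groups were apart for 4 of them, Cdh5, Kdr, Cldn5 and Sox17 (40.0%, against 24.6% of all genes). For 6 of the 10 the gap between replicates was larger than the gap between group means. No marker was at 0, and their summed level was 1206 and 1086 CPM in Ctrl and 1845 and 1566 CPM in Olfm4CKO. Olfm4CKO replicate 1 was thus highest, as it was for Robo4, Epha2, Efnb2 and Sema3g. Nrp1, Plxnd1 and Ephb4 were instead highest in Ctrl replicate 1, and Unc5b in Olfm4CKO replicate 2. Among members known from endothelium, Robo4, Unc5b and Sema3g were higher in both Olfm4CKO libraries, Nrp1, Plxnd1 and Efnb2 overlapped, and Ephb4 had a negative value with overlap. The part of endothelial RNA in these values was not tested. In bulk tissue more cells of a type and more RNA per cell cannot be told apart. Skeletal muscle markers summed to 52.0 and 10.2 CPM in Ctrl and 149 and 14.6 CPM in Olfm4CKO, and their part in the values of Epha2 and Robo4 was not tested either.

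Partners outside the 9 families did not pass either. A list of 50 further ligands, co-receptors and cytoplasmic effectors of these pathways had 42 tested genes, of which 29 lay above 0 and 13 below (median log2 fold change 0.21), with 0 past edgeR's adjusted threshold and 1 at an unadjusted p below 0.05. This is 2.38% of the tested partners, near the 2.11% of all genes. The gene was Srgap1, a GTPase-activating protein that acts below ROBO receptors, with 3.32 and 3.32 CPM in Ctrl and 5.94 and 7.82 CPM in Olfm4CKO (1.05 ± 0.47 SE, edgeR unadjusted p = 0.0472). Next by p were Mical3, an actin-oxidising enzyme (0.55 ± 0.33 SE), the actin regulator Enah (0.54 ± 0.39 SE) and the adaptor Nck2 (0.46 ± 0.35 SE). For the first and the last of these 3 both Olfm4CKO libraries lay above both controls.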

How the data were processed

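Cutadapt 1.11, HISAT2 2.1.0 and featureCounts 1.6.0 with mm10 are named in the submitters' processing notes. Annotation and strand setting: not given in the sources used here. The table is named for FPKM, but the authors deposited whole numbers with unequal totals, which were taken as raw read counts. Of 35978 rows 3 (a broken row of Neb) hold no counts in replicates 1 and 2, and 27 symbols had become dates. Replicate 3 columns are blank in 11702 rows and do not follow the gene names.

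Members and lists were chosen with earlier results of these data known. Counts of 4 libraries were fitted in edgeR 4.0.16 (R 4.3.3) with filterByExpr (minimum count 10, total 15), TMM scaling and a quasi-likelihood fit with group as its term, and p was adjusted by Benjamini-Hochberg over 13573 genes at 0.05. SE is the log2 fold change over the square root of F. CPM use effective library sizes, and their precision is set by depth and by the spread between libraries. Described in full were members with a mean of at least 10 CPM, the 10 smallest p, and the highest member of a family with neither, 29 genes. Coordinates are from RefSeq (GRCm38.p6) and lengths from GENCODE vM21, both with all 68 members. Union lengths of long isoforms lower a level per length. DESeq2 1.42.0, limma-voom 3.58.1, other filters and scalings, a replicate block and left-out libraries were the alternatives. The fits were tested on simulated counts. Within groups, replicates differed beyond counting error, with chi-square over its degrees of freedom at 85.2 (Ctrl) and 130.1 (Olfm4CKO).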

Additional observations from a re-analysis of the deposited data

How the results depend on the processing

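No member passed under any of the 7 alternative settings or with any of the 4 libraries left out. The count over all genes went from 0 to 4 with DESeq2 and to 4 with the replicate number as a block, and lay between 6 and 27 with a library left out. The labels do not tie same-numbered libraries together, and the block called 0 members. With a library left out the filter also lets in other genes, and a lone library is taken to vary as the opposite group does.

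Of the 29 genes described in full 15 kept their sign throughout. Plxna2 turned to 0.06 under limma-voom and 0.05 under the block, and Sema4a to 0.01 under each. With a library left out 14 crossed 0: Efna1 ran from -0.49 to 0.90, Efnb1 from -0.15 to 0.19, Efnb2 from -0.37 to 0.47, Nrp1 from -0.07 to 0.15, Nrp2 from -0.44 to 0.70, Plxna1 from -0.54 to 1.40, Plxna2 from -0.75 to 0.96, Plxnb2 from -0.44 to 0.51, Plxnd1 from -0.20 to 0.37, Sema4a from -0.65 to 0.79, Sema5a from -0.27 to 1.14, Sema6b from -0.45 to 0.02, Sema7a from -0.84 to 0.64 and Slit3 from -0.69 to 0.76.

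Medians moved as well. With a library left out the median ran from -0.05 to 0.26 over all members, from -0.09 to 0.15 over ligands, 0.05 to 0.63 over receptors, -0.20 to 0.23 over semaphorins, -0.42 to 0.55 over plexins and neuropilins, -0.05 to 0.26 over netrins, UNC5, SLIT and ROBO, 0.00 to 0.92 over Eph receptors, 0.08 to 0.39 over ephrins and 0.17 to 0.26 over partners. The ligand median was 0.04 with library totals, -0.05 without a filter, 0.07 with a filter of 1 CPM in 2 libraries and -0.04 in DESeq2. The median of Eph receptors went from -0.09 to 0.64 without a filter, 0.67 in DESeq2, 0.13 in limma-voom and 0.09 under the block, and that of partners to 0.08 without a filter and 0.10 in DESeq2. The settings without a filter and DESeq2 add genes of few counts. The cause of the other shifts was not tested. Depth limits the 19 untested members.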
